A study of Saccharomyces cerevisiae with 24 samples.

Results

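The change that 4 strains of budding yeast share after 20 min in 0.4 M NaCl was measured across the transcriptome, together with the spread of that change between the strains. All 8 libraries taken at 20 min were set against all 8 taken at 0 min, paired by strain and by the number in the column name, so 16 of the 24 libraries enter the tests. The 4 strains are a wild type (WT) and the mutants Mut1, Mut2 and Mut3, with 2 libraries for each strain and time. All derive from W303-1a, a haploid laboratory strain, with SHO1 replaced by HIS3 and a qVenus reporter under the STL1 promoter at leu2, marked with LEU2. In all 4, YPD1 stands in a cassette marked with TRP1 and HPH, and SLN1 was replaced with URA3 and KanMX as markers. In Mut1 the changes are M20D in Ypd1, and E1101K, E1110K and S1179D in Sln1. Those of Mut2 are M20D and M92K in Ypd1 beside the 3 Sln1 changes of Mut1. In Mut3 they are I13D in Ypd1, and E1101K, L1109K, E1110K and S1179D in Sln1. The labels do not say how many clones of each strain were used, nor whether a group's libraries were separate cultures. The medium was synthetic complete, and salt was given to cells in mid-log growth.

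Sln1, a histidine kinase, is an osmosensor, Ypd1 carries its phosphate to the response regulators, and loss of that phosphate in high salt starts the Hog1 MAP kinase cascade. Hog1 raises glycerol synthesis and turns on osmostress genes. Salt also sets off the environmental stress response, in which genes bound by Msn2 and Msn4 rise and genes for making ribosomes fall. The pathway has another input branch, whose membrane protein Sho1 is missing from all 4 strains.

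Values are FPKM for 7126 features, and 6356 of them were tested, those averaging 1 FPKM or more across the 16 libraries. The change of a strain is the mean of its 2 paired differences in log2(FPKM + 1), and the shared change is the mean over the 4 strains. It was tested with limma on the spread between the 4 strains, with adjustment by Benjamini and Hochberg over all 6356 features. The test takes the 4 strains as independent. Mut2 carries every change of Mut1 with M92K in Ypd1 added, and the test does not allow for this. A gene is said to rise or fall where the adjusted p is under 0.05. A shared gene also moved the same way in all 8 pairs and by at least 1 on the log2 scale, or 2-fold, in each strain. The FPKM of all features summed to less at 20 min than at 0 min in each strain, and structural RNA genes summed to 75006.3 FPKM in library 0 of Mut2 at 20 min against 4171 to 14845 in the other 23 libraries. All 5 listed MATa markers, among them STE2 at 70.6 to 695 FPKM, were above 0 in the 16 libraries. Of 6 listed markers of the other mating type found in the table, MATALPHA1 and MATALPHA2 were at 0 in all 16, and STE3 and MF(ALPHA)1 reached at most 0.596 and 2.05 FPKM. MF(ALPHA)2 and SAG1 were present in all 16, at 11.3 to 30.0 and 10.2 to 21.2 FPKM, and MF(ALPHA)2 rose by 0.46 on the log2 scale. SHO1 was listed at 0 in all 24 libraries. The depth behind each value is unknown, since counts were not used here.

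Most of the transcriptome moved in the same direction in the 4 strains after 20 min in salt. The series has no group kept for 20 min without salt, so salt cannot be told apart from time or handling. In all, 2374 features rose (37.4%) and 1906 fell (30.0%), of which 2158 and 1726 had the same sign in all 8 pairs. Of these, 649 were shared genes that rose (10.2% of those tested) and 617 were shared genes that fell (9.71%). Without library 0 of Mut2, the counts were 2269 and 1965 called and 618 and 651 shared. The median shared change was 1.94 over the former, on the log2 scale, and −1.90 over the latter, against 0.08 over all tested features. The 8 libraries at 20 min lay wholly above the 8 at 0 min for 597 of the 649, and wholly below for 588 of the 617. The same held for 19.1 and 17.5% of all tested features. Shared genes were chosen from these same values, so their lack of overlap follows in large part from that choice.

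Leading genes are the 12 largest shared changes of each direction among shared genes that averaged 5 FPKM or more and whose groups did not overlap. Of the leading rises, 6 were on the list of Msn2 and Msn4 stress genes and 5 on that of hydrophilins and small stress proteins, which share HSP12. A further 1, STL1, was on the glycerol list. The lists were chosen with earlier results of these data known, so these counts may follow in part from that choice. CTT1 (YGR088W, chromosome VII, 654634 to 656322, build R64), which encodes the cytosolic catalase, stood at 6.33 to 10.2 FPKM at 0 min, with a median of 8.12. At 20 min it stood at 2311 to 6454 FPKM, with a median of 4205. The groups lay far apart, and the lowest 20 min value was in Mut2. The shared change was 8.81 ± 0.20 (SE over 4 strains), or 449-fold, with an adjusted p of 1.64e-05. ALD3 (YMR169C, chromosome XIII, 599352 to 600872), which encodes a stress-induced aldehyde dehydrogenase, followed with 3.58 to 6.55 FPKM at 0 min and 1508 to 3387 at 20 min. Its shared change was 8.56 ± 0.17 (adjusted p = 1.4e-05), and its 4 strain changes ran from 8.15 in Mut2 to 9.14 in Mut3. STL1, the glycerol importer described further on, followed ALD3 at 7.68. NQM1, which encodes a transaldolase, rose by 7.65 on the log2 scale, and TKL2, a transketolase of the same pentose phosphate pathway, by 6.58. SOL4, which encodes another enzyme of that pathway, a 6-phosphogluconolactonase, rose by 6.96. RTC3, PHM7, RTN2, FMP45 and MSC1 rose by 6.94 to 7.60, and HSP12 by 6.79.

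**Figure D1:**
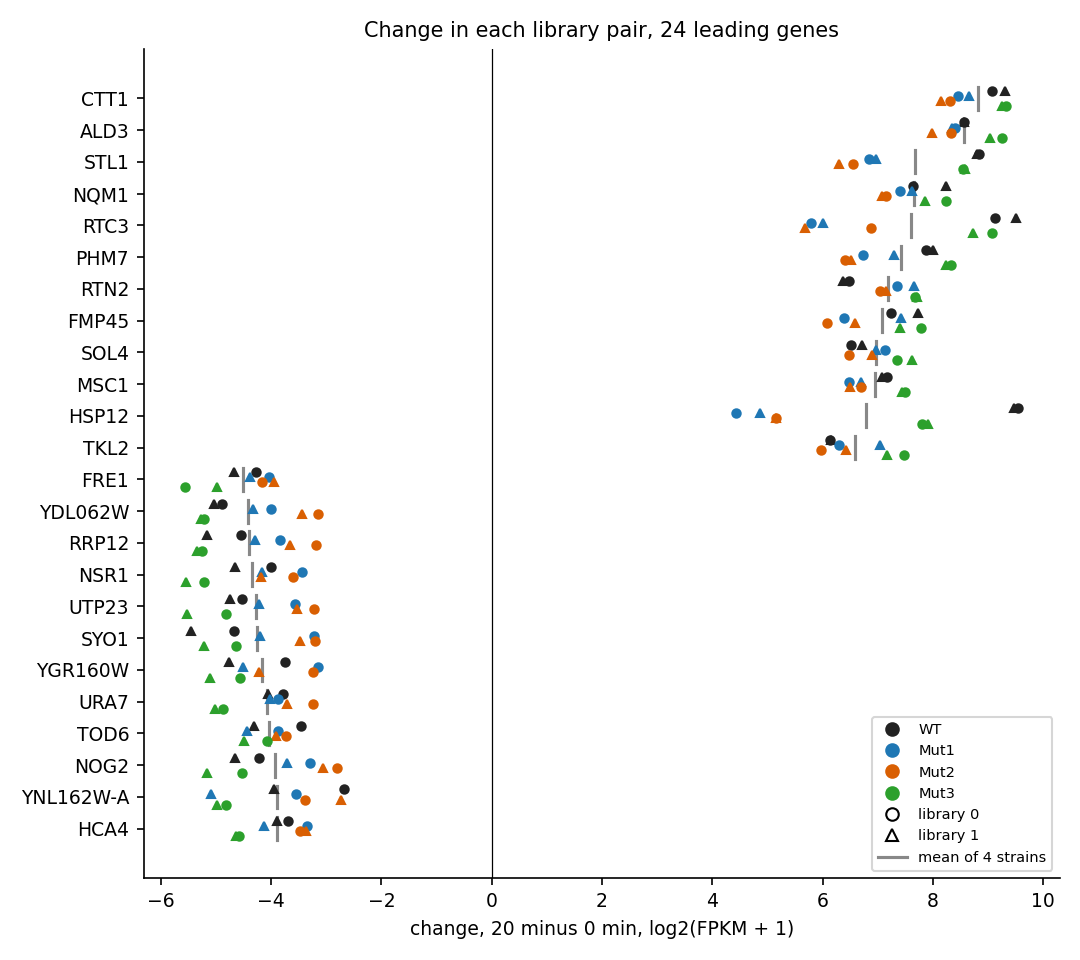
Change from 0 to 20 min in log2(FPKM + 1) for each of 8 library pairs, for the 12 shared genes with the largest rise and the 12 with the largest fall; colour gives the strain, circles library 0, triangles library 1, and grey bars the mean of the 4 strains. The genes were chosen for moving the same way in all 8 pairs, and HSP12 spreads from 4.65 in Mut1 to 9.51 in the wild type.

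Of the 12 leading falls, 5 were on the ribosome biogenesis list and 1, TOD6, on that of regulators of ribosomal genes. FRE1, the ferric and cupric reductase gene, came first at −4.50. YDL062W, which is not annotated in the reference and so was not searched for overlaps, followed at −4.42. RRP12 (YPL012W, chromosome XVI, 529723 to 533409), needed to export pre-ribosomes from the nucleus, stood at 78.1 to 118 FPKM at 0 min, with a median of 88.9. At 20 min it stood at 1.09 to 9.19, with a median of 3.78. The lowest libraries were those of Mut3 and the highest those of Mut2, and none reached the 0 min range. Its shared change was −4.41 ± 0.32, 21.2-fold, with an adjusted p of 0.000145. NSR1, the nucleolin of yeast, fell by 4.35 on the log2 scale. UTP23, a factor of the small subunit processome, fell by 4.27. SYO1, which brings ribosomal proteins Rpl5 and Rpl11 into the nucleus, fell by 4.26. NOG2, a GTPase of the large subunit, fell by 3.93. It overlaps SNR191, and FPKM of overlapping genes are uncertain. HCA4, an RNA helicase of rRNA processing, fell by 3.89. URA7, a CTP synthase gene, fell by 4.07, and TOD6, whose product binds the PAC motif, by 4.04. The remaining leading falls were YNL162W-A at −3.90 and YGR160W at −4.16, the latter not annotated in the reference and so not searched for overlaps.

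Promoters of most of these genes hold short motifs known as binding sites. A stress element, AGGGG, is read by Msn2 and Msn4, and it stood in the searched window of 10 of the 12 leading rises, all but PHM7 and FMP45. Each sequence below is 30 bases of genome build R64 (RefSeq), 5′ to 3′ on the strand of the gene, and the capitals mark the motif nearest the annotated start, as AGGGG or its reverse complement. They show the element in front of leading genes of the rise and of GPD1.
STL1 (chrIV:1507818-1507847, + strand): cttcaattttgtCCCCTtcaacgctgcttg
CTT1 (chrVII:654489-654518, + strand): catttatcgtatCCCCTactgctacacgta
HSP12 (chrVI:107054-107083, + strand): gttccggtcgtcCCCCTcttgatctgaaag
ALD3 (chrXIII:601093-601122, - strand): tgttgatcagcCCCCTtcttaagctgattg
NQM1 (chrVII:581584-581613, - strand): taggggcgaatgAGGGGagcatagtggatc
GPD1 (chrIV:411779-411808, + strand): ttgtacacccccCCCCTccacaaacacaaa

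For the genes that fell, the capitals mark PAC, GCGATGAG, which Tod6 and Dot6 bind, or AAAAATTTT, the core of the ribosomal RNA processing element (RRPE), which Stb3 binds. Either may stand as its reverse complement. Of the 12 leading falls 10 had a promoter to search, and 9 of these held PAC or the RRPE core, all but FRE1. The sequences show the motifs before leading genes of ribosome production and before TOD6 itself.
RRP12, PAC (chrXVI:529548-529577, + strand): tatcatctcatCTCATCGCgcaattagaac
RRP12, RRPE (chrXVI:529498-529527, + strand): ataattagtgAAAATTTTTcttttcgctgc
NSR1, PAC (chrVII:807825-807854, - strand): tgcaagggcagCTCATCGCaagaacgaaaa
TOD6, PAC (chrII:117362-117391, + strand): gcgagaccaatGCGATGAGacacttttcta
UTP23, RRPE (chrXV:333471-333500, + strand): cttcgggaagAAAAATTTTcaagatgtcaa
NOG2, RRPE (chrXIV:723246-723275, - strand): cgcttgaagaAAAATTTTTcacttttcttc

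Each motif was searched on both strands from 250 bases before to 50 after the annotated start of 5713 tested protein-coding genes. AGGGG stood in 50.6% of the 603 promoters of shared genes that rose, in 9.57% of the 575 of shared genes that fell and in 22.0% of all. PAC stood in 0.829, 24.7 and 4.13% of the same sets, and in 52.3% of the 130 ribosome biogenesis promoters. The RRPE core stood in 1.82, 33.0 and 7.28%, and in 69.2% of the ribosome biogenesis promoters. No motif searched contains another. The heat shock element, written GAANNTTC, stood in 12.3% of promoters that rose, 13.7% of those that fell and 12% of all, but in 37.9% of the 29 chaperone promoters. ACGTCA, a site of the repressor Sko1, stood in 7.96, 6.61 and 7.67%. Shares are descriptions of these windows and were not tested.

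**Figure D2:**
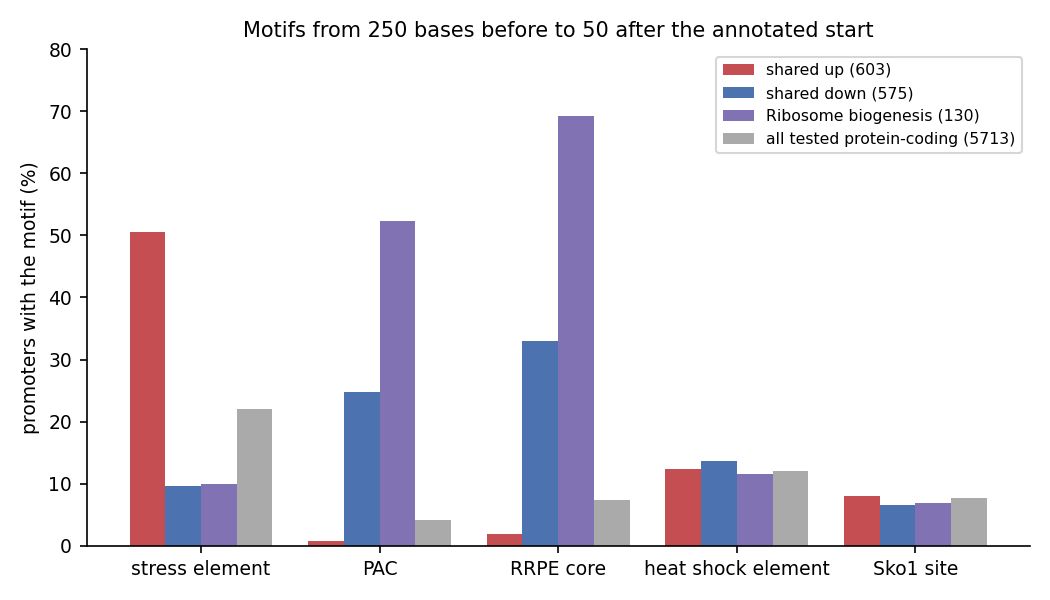
Share of promoters (in %) that hold each motif, from 250 bases before to 50 after the annotated start, for shared genes that rose, shared genes that fell, the ribosome biogenesis list and all tested protein-coding genes. The stress element is at 50.6% in the genes that rose against 22.0% of all, and PAC and the RRPE core reach 52.3 and 69.2% in ribosome biogenesis.

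Glycerol genes rose in all strains, and by unequal amounts. Of the 14 genes of glycerol synthesis, transport and breakdown, 10 rose (71.4%) and none fell, with a median shared change of 1.42. Over all tested features 37.4% rose and 30.0% fell. STL1 (YDR536W, chromosome IV, 1508005 to 1509714), the glycerol importer, went from 5.76 to 10.6 FPKM, with a median of 8.11, to 815 to 3095, with a median of 2094. Its shared change was 7.68 ± 0.45, or 205-fold (adjusted p = 8.64e-05). The wild type reached 3095 and 3009 FPKM and Mut3 2901 and 2805, while Mut1 reached 1332 and 1382 and Mut2 1014 and 815. GPD1, the glycerol 3-phosphate dehydrogenase of the first step, rose by 4.94 ± 0.45, and GPP2, a phosphatase of the second, by 5.04 ± 0.43. GPP1, its partner, was already at 2262 to 3408 FPKM at 0 min and rose by 1.38 on the log2 scale. DAK1, which encodes dihydroxyacetone kinase, rose by 3.75. ENA1, the sodium pump, rose by 2.81 ± 0.54 from 2.88 to 3.74 FPKM to 10.7 to 106. Its value is uncertain because of the near-identical copies YDR038C and YDR039C.

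All 30 listed targets of Msn2 and Msn4 rose and were shared genes, against 37.4 and 10.2% of all tested features. Their median shared change was 4.73. These targets are known from earlier work as stress-induced genes, so the list was chosen for rising in stress. Of the 18 genes on the list of hydrophilins and small stress proteins 17 rose (94.4%), with a median of 5.58. The members of this list were chosen with earlier results of these data known, so its share may follow in part from that choice. HSP12 (YFL014W, chromosome VI, 107256 to 107585) reached 28435 to 76304 FPKM from 43.8 to 1954. Storage carbohydrate genes rose with them. All 7 trehalose genes rose, among them TSL1 by 6.04, TPS2 by 5.29 and TPS1 by 4.54, which form the trehalose synthase complex. ATH1, which encodes a trehalase that breaks the sugar down, rose too, by 2.76. Of 15 glycogen genes 13 rose (86.7%) and none fell. They include PGM2 at 5.71, the glycogen synthase gene GSY1 at 3.91, the branching enzyme gene GLC3 at 3.88 and GPH1, which encodes the phosphorylase that degrades glycogen, at 3.86.

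Among 29 heat shock chaperones 21 rose (72.4%) and 3 fell (10.3%), against 37.4 and 30.0% of all tested features. The small heat shock proteins HSP42 and HSP26 rose by 6.46 and 5.61, and HSP104, a disaggregase, by 4.37. SSA1, an Hsp70 with the near-identical copy SSA2, rose by 3.80. SSB1, an Hsp70 bound to ribosomes with the near-identical copy SSB2, fell by 1.64. Of 30 redox defence genes 19 rose (63.3%) and 2 fell (6.67%), with PRX1 and TSA2, both peroxiredoxins, at 2.90 and 2.73. In the cation list 15 of 22 rose (68.2%) and 2 fell (9.09%). The calmodulin-dependent kinase gene CMK2 rose by 2.80 and PMC1, the vacuolar calcium pump, by 2.22, while PMA1, the main proton pump of the cell surface, fell by 1.76.

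The genes of the salt-sensing pathway moved in both directions. Of 15 tested genes of the Sln1 and Sho1 branches 6 rose and 8 fell, or 40.0 and 53.3% against 37.4 and 30.0% of all tested features. Their changes ran from −1.24 in MSB2, the 1 shared gene among them, to 1.29 in SSK1. SLN1 fell by 0.32 on the log2 scale, from a median of 20.6 to 16.4 FPKM, and YPD1 by 0.72, from 80.3 to 50.6. SSK1, the response regulator that starts the cascade, rose by 1.29, and STE50, an adaptor of the cascade, by 1.05. PBS2, the kinase above Hog1, rose by 0.38 ± 0.09 (adjusted p = 0.0124 on the spread between strains). The call was lost on the spread between unpaired libraries of a group (adjusted p = 0.248). HOG1 stood at 190 to 314 FPKM at 0 min and at 227 to 318 at 20 min, with a change of 0.17 ± 0.08 and an adjusted p of 0.115, or 0.0406 with the replicate block. MSB2, a mucin of the Sho1 branch, fell by 1.24. The phosphatase gene PTP3 changed by 0.11 ± 0.13 (adjusted p = 0.456), and without the wild type the value was −0.011. OCH1 changed by 0.23 ± 0.15 (adjusted p = 0.222 on the spread between strains, or 0.00175 on that between pairs). Its change was 0.75 in the wild type and −0.06 to 0.19 in the mutants. At 0 min OCH1 was at 50.1 and 65.6 FPKM in the wild type and at 119 to 181 in the mutants. SDP1, a stress-responsive MAP kinase phosphatase, rose by 3.91. CIN5, a transcription factor of the Hog1 effector list, rose by 2.71 and RCK2, a kinase that Hog1 phosphorylates, by 1.17. MSN2 rose by 1.28 and MSN4 fell by 0.43.

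The marker genes of the strain construction were read the same way. LEU2, which marks the reporter, rose by 1.59 ± 0.11, from a median of 344 to 1015 FPKM. HIS3 fell by 0.51 (adjusted p = 0.00651, or 0.0887 on the spread between unpaired libraries of a group). TRP1 changed by −0.12 (adjusted p = 0.204) and URA3 by 0.15 (adjusted p = 0.197). On the spread between the 2 pairs of a strain, which leaves out that between strains, these adjusted p were 0.0289 and 0.0416.

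Transcripts of most genes for ribosome production fell. All 130 tested ribosome biogenesis genes fell, and 126 of them were shared genes, against 30.0 and 9.71% of all tested features. Their median was −2.69. Of 32 subunits and regulators of RNA polymerases I and III, 23 fell (71.9%) and 5 rose (15.6%, against 37.4% of all tested features). RPA135 and RPA190, the largest subunits of polymerase I, fell by 3.61 and 3.39, and MAF1, the repressor of polymerase III, rose by 0.93. Among regulators of ribosomal genes, IFH1, an activator, fell by 1.07. STB3 and SFP1, which encode a repressor and an activator, rose by 1.05 and 0.74. Of 38 translation factors 34 fell (89.5%), with YEF3, elongation factor 3, at −2.41 and GCD10 at −2.57.

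Ribosomal protein genes had a smaller median fall than ribosome biogenesis genes, and a handful rose. Of 137, 129 fell (94.2%) and 6 rose (4.38%), against 30.0 and 37.4% of all tested features, and the median was −1.20. RPL7B, which overlaps SNR59, had the largest fall at −2.52. Shared genes that rose were 4 in number, RPL43A, RPL39, RPL22A and RPL36B, the last of which was named after its value was seen. RPL43A went from 30.9 to 50.2 FPKM to 494 to 796, a change of 3.87 ± 0.08 with a strain SD of 0.10. RPL39 rose by 3.39, RPL22A by 3.37 and RPL36B by 2.51. These 4 genes also separated the 10 min libraries. RPL43A stood at 15.8 to 63.7 FPKM at 10 min in the wild type and Mut1, within or near the 0 min range, and at 819 to 1517 in Mut2 and Mut3. Of all tested features, these 4 alone lay at least 2-fold apart, as FPKM plus 1, between the 12 libraries of 0 min with 10 min of the wild type and Mut1 and the other 12. A difference between those 2 sets of libraries and the change with time cannot be told apart in these 4 genes, and the sets were defined after the data were seen.

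Protein breakdown genes rose. Of 28 autophagy genes 25 rose (89.3%, against 37.4% of all tested features), with a median of 1.52. ATG8, which encodes the protein of the autophagosome membrane, rose by 2.78, and ATG19, a receptor for vacuolar hydrolases, by 2.65, while ATG41 fell by 2.12. All 8 vacuolar proteases rose, led by PRB1 at 2.12 and with PEP4 at 1.76. Of 33 proteasome subunits and regulators 32 rose (97.0%), by a median of 0.74, and 1, RPN6, was a shared gene. PUP1 rose by 0.95 and RPN4, the transcription factor of proteasome genes, by 0.92.

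Metabolic genes were mixed, and the counts of several lists lay near those of all tested features, of which 37.4% rose and 30.0% fell. Of 16 hexose transporters 5 rose (31.2%) and 4 fell (25.0%), both under the shares of all features. HXT5 rose by 6.01, and HXT2, HXT3 and HXT4 fell by 3.73, 2.79 and 2.16. GLK1 and HXK1, glucose-phosphorylating enzymes, rose by 5.35 and 4.84, GLK1 with an overlap with YCL042W, while 12 of 27 genes of glycolysis and fermentation fell (44.4%) and 9 rose (33.3%). In respiration 19 of 41 rose (46.3%) and 7 fell (17.1%), with the stress forms CYC7 and COX5B at 6.01 and 2.61 and NDI1, the internal NADH dehydrogenase, at 2.28. Of 56 amino acid synthesis genes 45 fell (80.4%) and 3 rose. LEU9 and ASN1 fell by 2.43 and 1.94, and ARO9, an aromatic aminotransferase, rose by 3.31. In the sulfate and methionine list 9 of 28 fell (32.1%) and 4 rose (14.3%), with SAM1 at −1.79 and MET13 at 1.51. Of 18 purine genes 9 fell (50%) and 3 rose (16.7%), led by GUA1 at −2.44. Of 18 amino acid permeases 9 fell (50%) and 5 rose (27.8%), with the proline permease gene PUT4 at 4.04 and TAT1 at −1.88. Of 27 ergosterol genes 10 fell (37.0%) and 6 rose (22.2%), with ERG11 at −1.02 and ERG9 at 0.96. In the phosphate list 5 of 19 fell (26.3%) and 4 rose (21.1%), and PHO3, an acid phosphatase, fell by 3.79. In the iron and copper list 10 of 28 rose (35.7%) and 8 fell (28.6%), with FIT1, an iron-binding wall protein, at 2.49 and CTR1, the copper importer, at −3.67.

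More cell wall and cell cycle genes fell than rose. Of 32 cell wall genes 15 fell (46.9%, against 30.0% of all tested features) and 3 rose (9.38%, against 37.4%). UTR2 and GAS1, enzymes that remodel wall glucans and chitin, fell by 2.31 and 1.85, and SPI1 rose by 6.19. Of 47 cyclins and cell cycle genes 29 fell (61.7%) and 8 rose (17.0%). CLB2, a mitotic cyclin, fell by 2.07, SFG1 by 3.79, and PCL1, a G1 cyclin, rose by 0.69. None of 10 histone genes rose and 3 fell, the 30.0% also seen over all features. The histone gene HTB2 had an adjusted p of 0.0148 that became 0.0616 without Mut3. Of 28 mating genes 10 rose (35.7%) and 12 fell (42.9%). MFA2, the a-factor gene, fell by 2.35, and STE2, the receptor for alpha-factor, by 1.69 (adjusted p = 0.0146, or 0.0553 without Mut3). FUS1, a reporter of the mating pathway, was low, at 1.03 to 4.38 FPKM against 1.89 to 6.21. Its change of 0.45 ± 0.16 had an adjusted p of 0.0457, which was lost in 8 of the fits that left out a strain or a pair, with values of 0.0517 to 0.168. Those were the fits without the wild type, Mut1 or Mut3, without WT library 0, Mut1 library 0, Mut2 library 1 and either Mut3 library. Of 28 genes of meiosis and sporulation, marks of another cell type, 11 rose (39.3%, near the 37.4% of all features) and 3 fell (10.7%). REC114 rose by 1.75 to 14.1 to 26.0 FPKM.

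**Figure D3:**
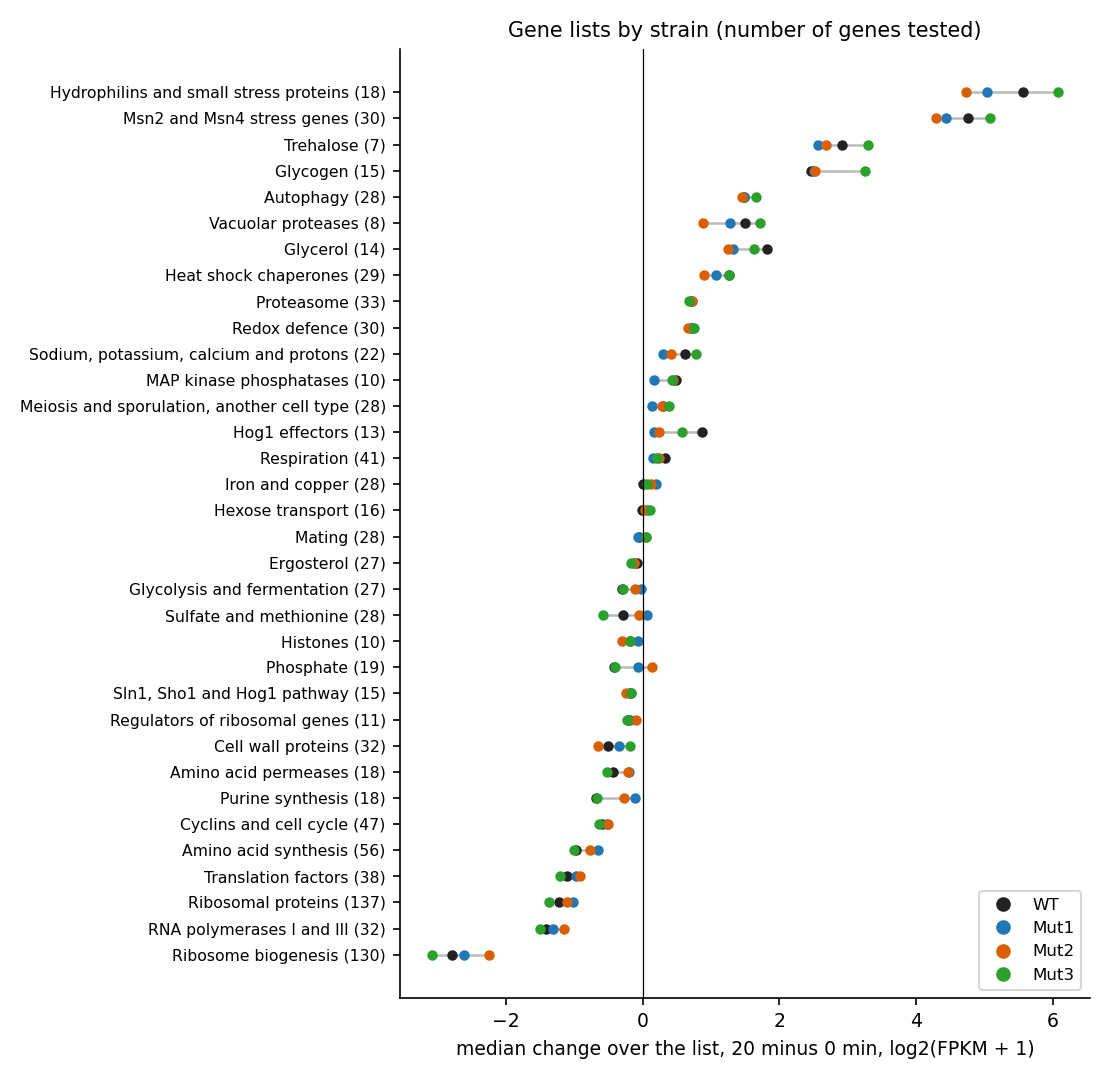
Median change from 0 to 20 min in log2(FPKM + 1) over each gene list, in each strain, with the number of genes tested in parentheses. The strains keep the order of the lists at both ends. Ribosome biogenesis is lowest, between −3.08 in Mut3 and −2.24 in Mut2. The list of hydrophilins and small stress proteins is highest, between 4.73 in Mut2 and 6.08 in Mut3.

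The median size of the shared response differed between strains. Over the 649 shared genes that rose, the median change was 2.17 in Mut3, 2.03 in the wild type, 1.80 in Mut1 and 1.72 in Mut2. Over the 617 that fell it was −2.11, −2.02, −1.80 and −1.65 in the same order. Mut3 had the largest change of the 4 strains in 340 of the genes that rose and in 417 of those that fell. Mut2 had the smallest in 318 and in 376. The median SD of the change over the 4 strains was 0.28 over the shared genes of either direction and 0.21 over all tested features.

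A test of equal change in the 4 strains, on the spread between the 2 pairs of a strain, was past the threshold in 782 features (12.3%). Of these, 577 also rose or fell as a shared change and 205 did not. Among shared genes the count was 179 of those that rose and 146 of those that fell. The count rests on each pair. It was 263 and 264 without library 0 and 1 of the wild type, 430 and 449 without those of Mut1, 341 and 483 without those of Mut2 and 329 and 339 without those of Mut3. Without pairing it was 117, all of them among the 782, and with the columns rescaled by median ratios it was 1266.

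When each strain was compared with the mean of the other 3, Mut2 differed in 681 features (10.7%), the wild type in 493 (7.76%), Mut3 in 347 (5.46%) and Mut1 in 95 (1.49%). With the columns rescaled by median ratios these counts were 1069, 860, 580 and 184. Among shared genes that rose, Mut2 had a smaller rise in 142 and a larger one in 2, Mut1 a smaller one in 31 and a larger one in 1, Mut3 a larger one in 88 and a smaller one in 4, and the wild type a larger one in 92 and a smaller one in 30. Among those that fell, Mut2 had a smaller fall in 133 and Mut3 a larger fall in 97. These counts also rest on single pairs. Without library 0 or 1 of the strain itself, Mut2 differed in 64 and 197 features, the wild type in 98 and 99, and Mut1 in 2 and 1. Pairs of other strains moved the counts too. The wild type differed in 245 to 306 without a pair of Mut1 or Mut3, Mut2 in 295 to 391 without a pair of the wild type or Mut3 or pair 1 of Mut1, and Mut3 in 97 to 200 without a pair of the wild type or Mut1 or pair 0 of Mut2. Mut1 differed in 23 to 38 without a pair of the wild type, pair 0 of Mut2 or pair 1 of Mut3, and in 1 without pair 0 of Mut3. Mut3 differed in 0 features by limma without either of its libraries, with 868 and 959 at an unadjusted p under 0.05.

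**Figure D4:**
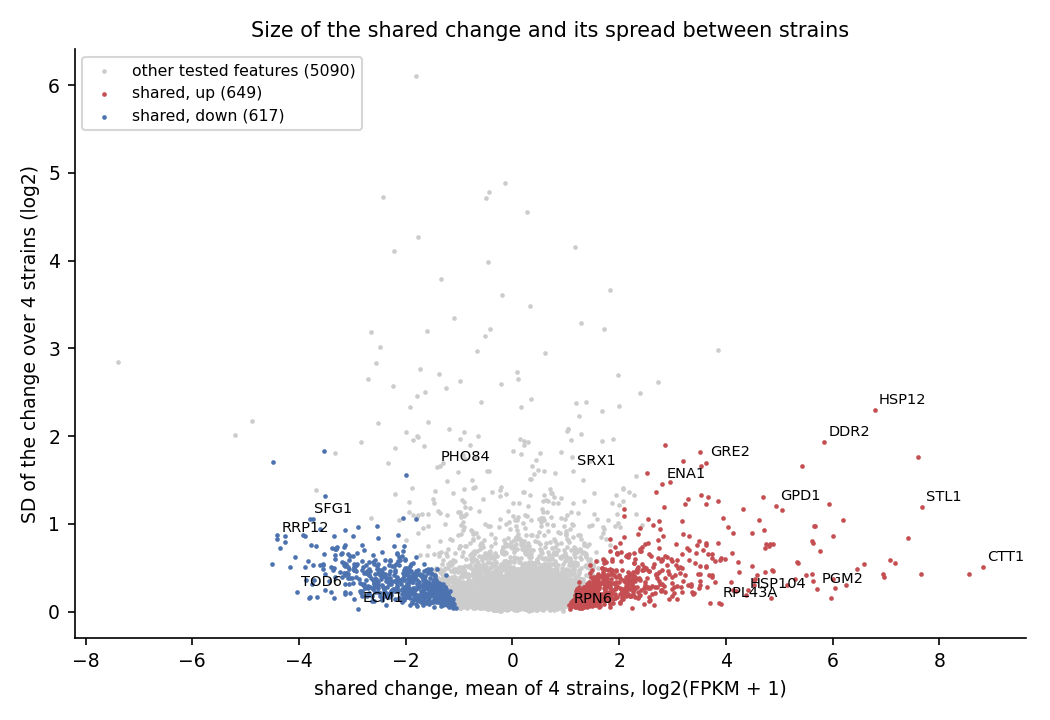
Shared change (mean of 4 strains, log2 of FPKM + 1) on the x axis against the SD of the change over the 4 strains on the y axis, 1 point per tested feature, coloured for shared genes. Among shared genes that rose the SD runs from 0.03, in RPN6, to 2.30, in HSP12.

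Several genes with a wide spread, HSP12, GRE2, DDR2, GPD1, GPP2 and YML131W, were already higher in every mutant library than in the wild type before salt. HSP12 stood at 69.7 and 43.8 FPKM in the 2 wild-type libraries at 0 min, at 1954 and 1269 in Mut1, at 1156 and 800 in Mut2 and at 340 and 187 in Mut3. At 20 min the wild type was at 52742 and 31843, Mut1 at 42117 and 37055, Mut2 at 40983 and 28435 and Mut3 at 76304 and 45532. The wild type lay below all mutants at 0 min, and the strains overlapped at 20 min. Its changes were 9.51 in the wild type, 7.86 in Mut3, 5.15 in Mut2 and 4.65 in Mut1, with an SD of 2.30, and differed between strains with an adjusted p of 0.000423, at most 0.00645 when a pair was left out. GRE2, which encodes a methylglyoxal reductase, was at 63.7 and 94.8 FPKM in the wild type and at 456 to 720 in the mutants at 0 min. It rose by 6.14 in the wild type and by 2.48 to 3.11 in the mutants (adjusted p of the difference = 0.000899). DDR2, a stress gene, was at 59.6 and 23.8 FPKM in the wild type and at 693 to 1602 in the mutants at 0 min. It rose by 8.46 in the wild type and by 4.28 to 6.14 in the mutants (0.00804). GPD1 was at 128 and 131 FPKM in the wild type at 0 min and at 185 to 531 in the mutants, and its changes ran from 3.88 in Mut2 to 6.26 in the wild type (0.00206). GPP2 was at 105 and 117 FPKM in the wild type and at 163 to 352 in the mutants at 0 min. It rose by 6.33 in the wild type, 5.69 in Mut3, 4.18 in Mut1 and 3.96 in Mut2 (0.000899), and its SD over the strain levels went from 0.74 at 0 min to 0.44 at 20 min on the log2 scale. YML131W was at 52.5 and 56.8 FPKM in the wild type and at 230 to 326 in the mutants at 0 min. It rose by 1.41 in Mut2 and 3.72 in the wild type (0.000899). In RTC3 and PRM10 the 0 min levels of Mut1 and Mut2 alone lay above the wild type, and Mut3 overlapped it. RTC3 was at 49.7 and 23.8 FPKM in the wild type, 59.7 and 43.8 in Mut3 and 196 to 384 in Mut1 and Mut2, and rose by 9.32 in the wild type and 5.90 to 8.90 in the mutants (0.00562). PRM10, which overlaps YJL107C, was at 29.2 and 43.4 FPKM in the wild type, 35.1 and 46.3 in Mut3 and 84.4 to 124 in Mut1 and Mut2. It rose by 1.09 in Mut2 and 4.24 in the wild type (0.000899).

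For STL1 and ENA1 the strains lay farther apart at 20 min than at 0 min. STL1 too was higher in every mutant library than in the wild type before salt, within 5.76 to 10.6 FPKM. It stood at 5.78 and 5.76 FPKM in the wild type, 6.80 and 6.29 in Mut3, 9.77 and 9.42 in Mut2 and 10.6 and 10.1 in Mut1. Its changes were 8.82 in the wild type, 8.56 in Mut3, 6.90 in Mut1 and 6.43 in Mut2 (adjusted p of the difference = 0.000899). ENA1 reached 99.3 and 106 FPKM in the wild type, 40.3 and 42.0 in Mut3, 11.1 and 13.0 in Mut1 and 10.7 and 15.6 in Mut2 (0.00195). CTT1 differed less between strains, with an SD of 0.51 (0.0132, or 0.341 without pairing). HXT5, at 5.45 to 8.01 FPKM in all libraries at 0 min, had its smallest rise in Mut2, at 5.06 (0.00672). SPI1 also had its smallest rise in Mut2, at 5.09 (0.00708), but its strains were apart at 0 min, with 18.5 and 19.1 FPKM in the wild type and 33.6 to 76.2 in the mutants. CPP3, of no role given here, stood at 96.0 and 73.5 FPKM in Mut2 at 0 min and at 8.02 to 31.1 in the other strains. It rose by 3.21 in Mut2 and 7.24 in Mut3 (0.0119). Without library 0 of Mut2 this became 0.0621 and without pairing 0.112.

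Some genes that fell, and SSK1, had larger changes in the wild type and Mut3 than in Mut1 and Mut2. SFG1 fell by 4.81 on the log2 scale in Mut3, 4.57 in the wild type, 3.14 in Mut1 and 2.65 in Mut2 (adjusted p of the difference = 0.00309). RPS9A, a ribosomal protein gene, changed by −2.81 in the wild type, −2.61 in Mut3, −0.97 in Mut1 and −0.73 in Mut2 (0.000899). HXT3 changed by −3.46, −3.32, −2.12 and −2.24 in that order (0.00393, or 0.160 without pairing), and STE2 by −2.94, −2.31, −0.78 and −0.71 (0.000899). SSK1 rose by 1.74 and 1.87 in the wild type and Mut3 and by 0.85 and 0.70 in Mut1 and Mut2 (0.0132, or 0.0831 without pairing).

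In some genes the mean over the strains did not pass the test while the strain changes differed. In 32 features the strain changes differed and were of opposite sign, by at least 0.58 up in a strain and down in another. SRX1, the sulfiredoxin gene, was at 2.14 and 3.81 FPKM in the wild type at 0 min and at 12.4 to 38.3 in the mutants. It changed by 2.81 in the wild type, 2.06 in Mut3, 0.36 in Mut1 and −0.71 in Mut2 (adjusted p of the difference = 0.000899). NFG1 changed by 2.72 in the wild type and −0.79 in Mut2 (0.00247, or 0.180 without pairing). SED1, a wall protein, changed by 0.91 in Mut3 and −0.66 in Mut2 (0.00733, or 0.484 without pairing). CRH1, a transglycosylase of the wall, changed by 0.70 in the wild type and −0.82 in Mut2 (0.00749, or 0.496 without pairing). PHO84, the phosphate importer, was at 167 and 325 FPKM in the wild type and 25.9 and 28.5 in Mut1 at 0 min, and at 21.2 to 74.9 in all libraries at 20 min. Its changes were −3.22 in the wild type, −2.39 in Mut3, −0.26 in Mut2 and 0.21 in Mut1 (0.00906). MET6, methionine synthase, changed by −2.19, −1.60, −0.12 and 0.32 in that order (0.00108). PTP2, a phosphatase of Hog1, changed by 1.31 in the wild type, 1.64 in Mut3, 0.12 in Mut1 and 0.02 in Mut2 (0.00451). At 0 min PTP2 stood at 8.01 to 12.9 FPKM in the wild type and Mut3, and at 26.3 to 30.5 in Mut1 and Mut2. At 20 min all libraries were at 24.8 to 33.3. NCW2 changed by 2.46 in the wild type, 1.89 in Mut3, 0.28 in Mut1 and −0.11 in Mut2 (0.000899, or 0.0596 without pairing). For the mean of the 4 strains the adjusted p was 0.0725 in PTP2, 0.077 in NCW2, 0.143 in SRX1, 0.0887 in PHO84 and 0.126 in MET6. On the spread between pairs, with the replicate block, these were 1.18e-05, 8.67e-07, 3.41e-06, 7.66e-05 and 3.22e-06. Without Mut2 the mean over strains also passed in PTP2 (0.048), NCW2 (0.0389) and SRX1 (0.0365).

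**Figure D5:**
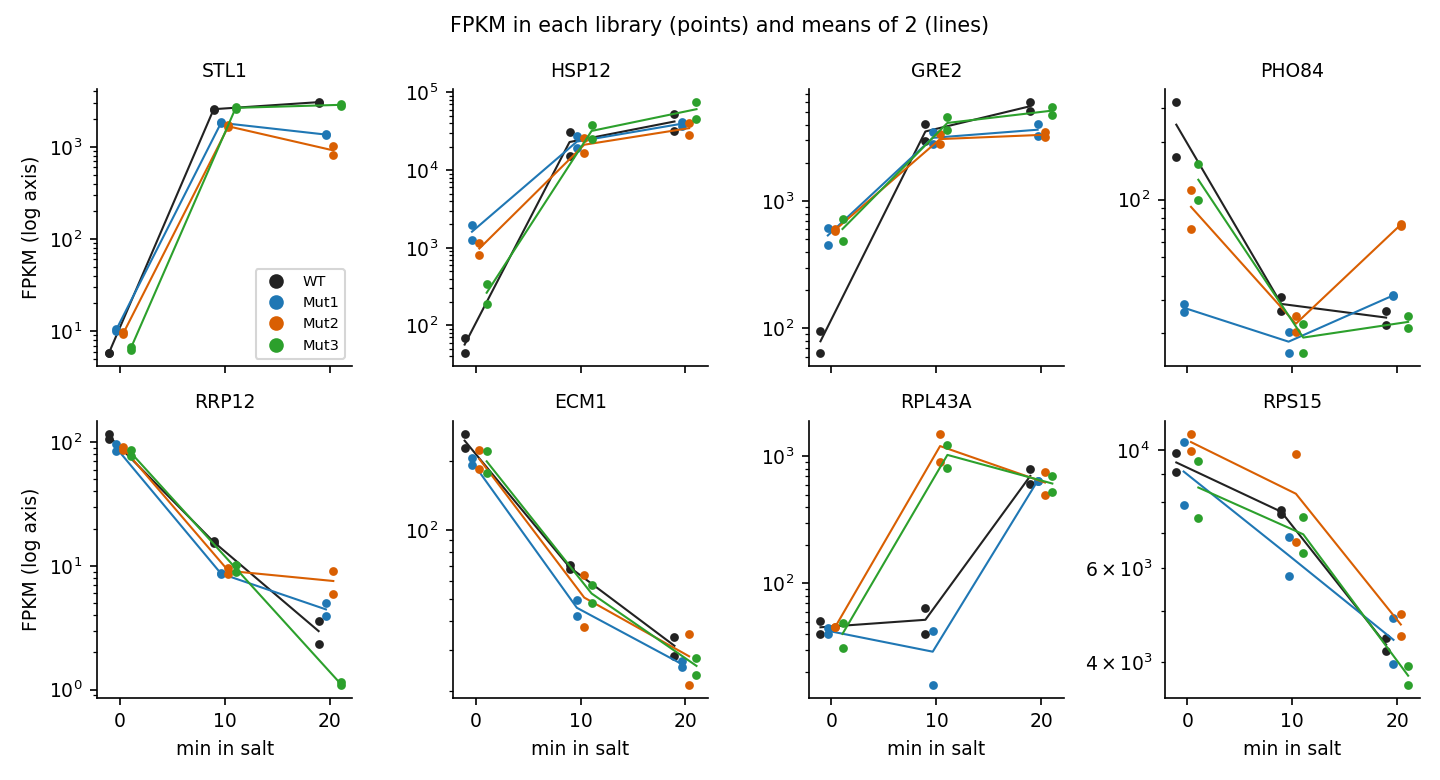
FPKM (log axis) of 8 genes in every library at 0, 10 and 20 min in salt, with points for libraries and lines through the means of 2. HSP12 and GRE2 start apart and end close together. STL1 starts between 5.76 and 10.6, lowest in the wild type, and ends between 815 and 3095. ECM1 and RPS15 move together in all strains, and RPL43A at 10 min is high in Mut2 and Mut3 and low in the wild type and Mut1.

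At the other end stood genes whose change was almost the same in every strain. The SD over strains was 0.03 for RPN6, which rose from 134 to 167 FPKM to 268 to 353, a change of 1.07 in the mean of strains and of 1.05 to 1.11 in each. MVP1, a sorting nexin, FMS1, a polyamine oxidase, MPO1, MRP8 and EGH1, an ergosteryl glucosidase, rose by 1.24 to 2.24 with SD of 0.04 to 0.05. ECM1, a factor of pre-ribosome export, went from 178 to 263 FPKM to 21.1 to 35.3, with changes of −2.85 to −2.93 in the 4 strains. MYG1, PGA3, RPS15, a ribosomal protein, ASP1, an asparaginase, and SPE4, spermine synthase, fell by 1.06 to 1.47 with SD of 0.05 to 0.06. By list, the median SD was lowest in the proteasome, at 0.09, and highest in the list of hydrophilins and small stress proteins, at 0.80.

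Strains lay farther apart in salt than before it. The median SD of the strain levels in log2(FPKM + 1) was 0.14 at 0 min and 0.20 at 20 min over all tested features, and the strains were closer at 20 min in 31.8% of them. Among shared genes that rose it went from 0.18 to 0.29, with 29.7% closer at 20 min. Among shared genes that fell it went from 0.12 to 0.29, with 13.1% closer. In ribosome biogenesis the SD went from 0.11 to 0.37, and 4 of 130 genes were closer at 20 min. In the wall list 21 of 32 were closer at 20 min, and in respiration 24 of 41. These values are descriptions with no test.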

How the data were processed

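RNA from the 16 libraries at 0 and 20 min was analysed, with the 10 min libraries for context. Per the labels, total RNA was made into stranded mRNA libraries. Per the submitters' processing notes, TopHat2 and Cuffdiff were used on build sacCer3, and the authors deposited FPKM values, 1 column per library; versions, annotation and any scaling were not stated there. Of 7126 features, 6162 matched the R64 reference and 492 were listed at 0 in all 16 libraries. Overlapping genes and near-identical copies (blastn 2.17.0, 95% identity over 50% of the length) are named as uncertain. Overlaps were searched only among features matched to the reference, and copies only among its protein-coding genes, so unmatched features could not be flagged. The depth is unknown.

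Values were analysed as log2(FPKM + 1), and changes are ratios of FPKM plus 1, which understate changes of low genes. Limma 3.58.1 (R 4.3.3), with its variance trend on mean level, tested the shared change over 4 strains (3 residual degrees of freedom, two-sided) and the strain difference over 8 paired differences (4 residual). The fits were tested on simulated data. Columns end in 0 or 1, called library 0 and 1, and the labels do not tie these to replicate numbers. Deviations from the group mean correlated at 0.229 to 0.567 between same-numbered libraries in all 28 pairs of groups, so they were taken as pairs. P values measure only the spread between these strains and libraries, which may be technical.

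Named genes follow a rule of a fixed panel, the 12 largest shared rises and falls, up to 4 leading members and 2 against the majority per list, the smallest p and largest differences between strains, and the most uniform and opposite changes. Not all are printed, and the strain differences printed were mostly chosen because the call held with a pair left out. The members, lists, tests and rule were chosen with earlier results of these data known. Alternatives were the pseudocount, the filter on low FPKM, rescaling, and leaving out strains or pairs. Others tested the shared change on the spread between the 2 pairs of a strain (the replicate block) or between unpaired libraries of a group. Strain differences were also tested without pairing. Protein-coding genes alone and a wider motif window were added after seeing the data.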

Additional observations from a re-analysis of the deposited data

Results flagged for a closer look

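Named genes whose change differed between the 4 strains were given above with their values. The adjusted p of the difference by limma was 0.000423 for HSP12 and 0.000899 for STL1, GPP2, GRE2, STE2, PRM10, YML131W, RPS9A, NCW2 and SRX1. It was 0.00108 for MET6, 0.00195 for ENA1, 0.00206 for GPD1, 0.00247 for NFG1, 0.00309 for SFG1, 0.00393 for HXT3 and 0.00451 for PTP2. It was 0.00562 for RTC3, 0.00672 for HXT5, 0.00708 for SPI1, 0.00733 for SED1, 0.00749 for CRH1, 0.00804 for DDR2 and 0.00906 for PHO84. It was 0.0119 for CPP3 and 0.0132 for both CTT1 and SSK1. Over all tested features the count was 782.

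A pair stood apart from the other 7 in 3 of 144 named genes. The change was −1.67 in pair 1 of Mut3 for MSB2, 3.42 in pair 1 of Mut2 for RPL43A and −2.62 in pair 0 of Mut2 for ECM1. Chance flags about 1 in 20 such sets. Structural RNA genes stood apart from the other libraries of their time in library 0 of Mut2 at 20 min, at 75006.3 FPKM, and in library 0 of the wild type at 0 min, at 14844.8.

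At 10 min, outside the comparison of 0 with 20 min, RPL39 reached 3559 FPKM, RPL22A 238, RPL36B 806 and RPL43A 1517 in Mut2 or Mut3. The highest values in the wild type and Mut1 at 10 min were 232, 8.85, 70.3 and 63.7 FPKM in the same order. Between the 2 sets of 12 libraries named in the report, 10 features were higher and 2 lower without overlap.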

How the results depend on the processing

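The shared change kept its direction and its side of the threshold in 126 of 144 named genes under all 22 alternatives, and the 27 strain differences did so in 17. With strains or pairs left out, the count of genes that rose was 2001 to 2389 and of genes that fell 1643 to 1965, and shared genes were 618 to 741 up and 545 to 712 down. Under the same settings the strain difference was called in 240 to 693, the wild type contrast in 98 to 375, Mut1 in 1 to 115, Mut2 in 64 to 509 and Mut3 in 0 to 258. Rescaling the columns by median ratios gave 1266 strain differences and 860, 184, 1069 and 580 for the contrasts of the wild type, Mut1, Mut2 and Mut3, and 2146 up and 2123 down for the shared change; the cause was not tested. Without pairing the strain difference was called in 117. Tested on the spread between pairs instead of strains, the shared change was called in 2761 up and 2280 down. In protein-coding genes alone Mut1 differed in 154. The direction turned, with no call, without the wild type in PTP3 and NFG1, without Mut3 in SED1 and without Mut1 or Mut2 (0.0914) in CRH1. Over these settings the change was −0.0114 to 0.209 in PTP3, −0.262 to 0.908 in NFG1, −0.0062 to 0.519 in SED1 and −0.416 to 0.0914 in CRH1, where it was 0.080 without Mut1. From 500 bases before the start, AGGGG stood in 68.0% of promoters that rose, 22.3% that fell and 34.5% of all.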
